A study of Mus musculus with 8 samples.

Results

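The genes described here are 40 mouse genes of the cornified envelope and the granular layer of the epidermis, written down by symbol and looked up in the gene tables of sorted hair follicle stem cells (HFSCs) and epidermal stem cells (EpdSCs). The tables together list 24755 genes. Of the 40 members 29 were listed for HFSCs and 33 for EpdSCs, and 28 for both. The HFSC table lacked Tgm1, Tgm3, Cnfn, Csta1, Sprr1b, Sprr2d, Sprr3, Lce1a1, Lce1b, Lce1c and Lce3a. The EpdSC table lacked Rptn, Sprr2d, Sprr3, Lce1a1, Lce1b, Lce1c and Lce3a. A gene that a table lacked was not analysed there, and 6 members were in neither table.

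As a keratinocyte leaves the basal layer and moves outward, it makes precursors that transglutaminases crosslink beneath the plasma membrane into the cornified envelope, an insoluble protein shell that replaces the membrane. The plakins envoplakin and periplakin and involucrin form the scaffold on which loricrin and the small proline-rich and late envelope proteins are laid down, while filaggrin, released from granules of the granular layer, bundles keratin filaments. Proteases of the kallikrein family, held in check by inhibitors, later cut the corneodesmosomes so that dead cells are shed, and in the hair follicle this program is run by the upper follicle openings rather than by the bulge, where the stem cells sit.

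Cells were sorted from dorsal skin in telogen, HFSCs as CD34-positive, CD49f-positive and Sca-1-negative cells and EpdSCs as CD34-negative, CD49f-positive and Sca-1-positive cells. Each cell type had 2 WT libraries and 2 libraries labelled Msx2-KO. The mutant mice carry a neomycin cassette placed upstream of exon 2 of Msx2 on both alleles, with no tissue restriction, and the WT mice were C57BL/6J mice matched by hair cycle. The labels give an age of 2 months for WT HFSC mice and of 6 months for the other 3 groups, so age and genotype cannot be told apart in HFSCs. The labels number the samples of each group without saying that each came from its own animal, so p-values measure the spread between these samples. Estimated counts totalled 4324511 and 3132974 for the WT HFSC libraries, against 11016659 and 6895606 for those labelled Msx2-KO. The EpdSC table held values the authors had normalised, which summed to 16478545 and 14681964 for WT, against 24694442 and 14216483 for the mutant label.

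Msx2 itself, on chromosome 13 from 53466884 to 53473074 (GRCm38), had 53 and 7 estimated counts in WT HFSCs and 40 and 18 in HFSCs labelled Msx2-KO. In EpdSCs the WT libraries had normalised values of 58.5 and 85.4, and those with the mutant label 150.3 and 22.2. The groups overlapped in both cell types. The log2 fold change was -0.20 in HFSCs (SE 1.23, edgeR adjusted p = 0.975) and -0.27 in EpdSCs (SE 1.10, limma adjusted p = 0.865), so the mutant libraries are called KO-labelled throughout and every direction between genotypes rests on the labels. Gene-level values do not separate exons. The HFSC markers Cd34, Krt15, Lhx2, Sox9 and Lgr5 were present in every HFSC library, at 86.6 CPM or more (CPM being counts scaled to the library size, adjusted by TMM factors). Ly6a, which encodes Sca-1, was at 472 or more in the EpdSC libraries, while Lhx2 was at 37.9 or less and Lgr5 at 90.4 or less there. Ly6a was not listed in HFSCs nor Cd34 in EpdSCs. Krt15 was high in EpdSCs too, at 79951 and 96241 in WT and 230109 and 177798 in the KO-labelled libraries.

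In HFSCs, 22 of the 29 listed members passed the filter on low counts. The filter set aside Rptn, Lor, Kprp, Klk5, Sprr1a, Sprr2a1 and Skint5. In 9 of the 22 members both KO-labelled libraries lay above both WT libraries (Ly6d, Klk7, Cst6, Flg, Krtdap, Ivl, Cdsn, Lgals7 and Sfn), against 17.5% of the genes tested. In 3 members both lay below (Calml3, Evpl and Spink5), against 33.5%. At an adjusted p under 0.05 and a fold change over 2, edgeR called 0 members higher and 0 lower, and it called 0 of the 14422 genes tested in either direction (0%). With the p left unadjusted (under 0.05, fold over 2), edgeR had 7 members higher (Cst6, Flg, Ivl, Klk7, Krtdap, Lgals7 and Ly6d) against 5.02% of genes and 0 members lower against 12.2%. DESeq2 called 6 members higher (Cst6, Flg, Klk7, Krtdap, Lgals7 and Ly6d) against 2.38% of genes and 0 lower against 2.58%. With limma-trend, 2 members were called higher (Lgals7 and Ly6d) against 1.10% and 0 lower against 8.66%. A member could pass the filter through a single group, so these counts describe the members that passed. Of the 9 members with at least 10 counts in every library, 2 had both KO-labelled libraries above WT (Lgals7 and Sfn), against 24.3% of the 7994 genes with such counts, and 3 both below, against 27.2%, shares near those of all genes. The median log2 fold change of the 22 members, KO-labelled minus WT, was 1.62, beside -0.14 over the genes tested. It was 0.10 over the 9 members with at least 10 counts in every library (all such genes 0.08), 0.63 with library totals, which moved the median of all genes by -0.86, 0.43 with limma-trend (all genes -0.46) and 0.14 with a replicate block (-0.65). With libraries left out it ran from 0.0878 without KO-labelled replicate 2 (all genes -0.72) to 2.68 without KO-labelled replicate 1 (-0.32).

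Leaving out a single library also gave edgeR calls in HFSCs, among members and among all genes. With a KO-labelled library left out, the spread came from the WT pair alone, so such calls do not measure how the KO-labelled libraries vary. Without WT replicate 1, 2 members were higher (0.607% of genes) and 0 lower (0.432%), and without WT replicate 2, 2 were higher (0.585%) and 0 lower (0.211%). Without KO-labelled replicate 1, 16 members were higher (15.1%) and 0 lower (21.5%). Without KO-labelled replicate 2, 8 were higher (17.3%) and 8 lower (41.8%). With the replicate block 2 were higher (1.01%) and 0 lower (0.596%). The block pairs libraries by replicate number, which does not pair samples (r across genes of -0.0350 in HFSCs and -0.0225 in EpdSCs). Calls made with it in either cell type therefore rest on an arbitrary pairing.

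In EpdSCs 21 members had both KO-labelled libraries below both WT libraries, against 44.5% of the genes tested, and 4 had both above (Ly6d, Serpinb2, Sprr1b and Sprr2a1), against 27.8%. All 33 listed members were tested, on log2(value + 1). At the same thresholds limma called 4 members lower in the KO-labelled libraries (Ivl, Ppl, Sbsn and Lgals7), against 7.78% of the 16231 genes tested, and 0 members higher, against 1.57%. With the p left unadjusted, 14 members were lower, against 23.1% of genes, and 3 higher (Ly6d, Serpinb2 and Sprr2a1), against 12.2%. With a trend in the prior spread limma called 5 members lower (the 4 above and Evpl), against 8.92%, and 1 higher (Serpinb2), against 4.21%. The members' median log2 fold change was -2.66, beside -0.64 over the genes tested, and was -1.53 with a pseudocount of 10 (all genes -0.49) and -1.64 with a correction for GC content (-0.03).

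Without either WT library 0 of all the genes, members included, were called in EpdSCs, the spread then coming from the KO-labelled pair alone. The log2 fold changes of the 4 called members were about as large, at -5.26 and -6.16 for Ivl, -5.45 and -5.43 for Ppl, -3.21 and -3.62 for Sbsn and -2.85 and -3.30 for Lgals7. With a KO-labelled library left out, the spread came from the WT pair alone, so calls there do not measure how the KO-labelled libraries vary. Without KO-labelled replicate 1, limma called 12 members lower, against 24.7% of genes, and 2 higher, against 12.9%. Without KO-labelled replicate 2 it called 18 lower, against 40.9%, and 3 higher, against 23.1%. With a pseudocount of 0.1 it called 0 lower (5.85% of genes) and 0 higher (0.998%), and with 10 it called 7 lower (8.34%) and 2 higher (3.81%). Scaled to equal totals it called 1 lower (6.75%) and 0 higher (1.68%), and with mitochondrial and ribosomal RNA left out of the totals 1 lower (7.56%) and 0 higher (1.46%). With the replicate block 3 were lower (6.73%) and 1 higher (1.10%). In bulk samples such as these, fewer cells of a type and less RNA per cell cannot be told apart.

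**Figure D1:**
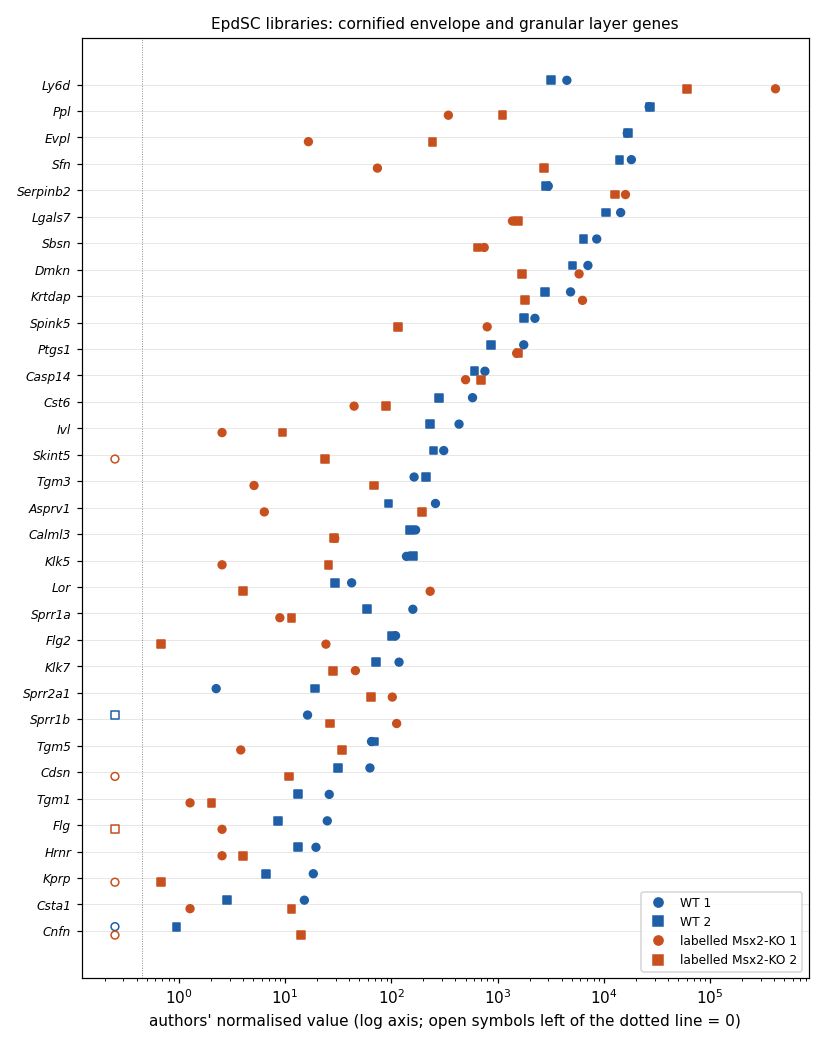
Normalised values, as the authors deposited them, of the 33 listed members in the 4 EpdSC libraries, on a log axis, with circles for replicate 1 and squares for replicate 2 and open symbols for 0. Ppl and Evpl have both WT libraries far to the right of both KO-labelled libraries, 27059 against 1112 in replicate 2 of Ppl, whereas Ly6d has both KO-labelled libraries to the right.

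Among the filaggrin-type proteins, in which S100 domains are fused to long repeats, Flg encodes profilaggrin, the source of filaggrin. In HFSCs it had 1.74 and 0.323 CPM in WT and 15.4 and 41.2 CPM in the KO-labelled libraries. Both KO-labelled libraries were higher, on 13 and 1 counts in WT and 141 and 194 counts in the others. The log2 fold change was 4.66 (SE 1.19, edgeR adjusted p = 0.143), and over the other settings the adjusted p ran from 0.0073 to 1. Flg was called with DESeq2 and without either KO-labelled library, at a log2 fold change of 3.63 without replicate 2. In EpdSCs Flg had normalised values 24.9 and 8.54 in WT and 2.55 and 0 in the KO-labelled libraries. Both were lower there, at a log2 fold change of -3.06 (SE 0.96, limma adjusted p = 0.120). With values this low the fold depends on the pseudocount, at -4.84 with 0.1 and -1.18 with 10. Flg was -1.17 with the GC correction and ran from -3.97 to -2.15 with libraries left out. Hrnr, which encodes hornerin, and Flg2 had 0 counts in KO-labelled HFSC replicate 1 and, in replicate 2, 17.8 and 88.3 CPM, above both WT libraries. A count of 0 in KO-labelled HFSC replicate 1 allows up to 0.327 CPM, for counting error only. In EpdSCs both genes were lower in both KO-labelled libraries, with log2 fold changes of -2.02 and -4.03 and limma adjusted p-values of 0.0938 and 0.153. Rptn, which encodes repetin, had 13 and 4 counts in WT HFSCs and 0 in both KO-labelled libraries and was not tested. A noncoding gene runs antisense over 13822 bases of Hrnr and 5744 of Rptn, and where exons overlap the reads cannot be told apart if counting did not use strand.

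Of the 13 envelope precursors, 5 were listed in HFSCs and 7 in EpdSCs. Ivl encodes involucrin, an early crosslinked component of the envelope. Its level in HFSCs was 1.20 and 1.29 CPM in WT and 16.9 and 13.4 CPM in the KO-labelled libraries. The groups did not overlap, with a log2 fold change of 3.58 (SE 1.01, edgeR adjusted p = 0.168). The WT levels were low, as a count of 0 allows up to 0.400 CPM in WT replicate 1 and 0.970 CPM in replicate 2. The closeness of the WT replicates therefore says little. In EpdSCs Ivl had normalised values 433 and 232 in WT and 2.55 and 9.44 in the KO-labelled libraries. The KO-labelled pair was far below the WT pair, and Ivl fell, with a log2 fold change of -5.71 (SE 0.80, limma adjusted p = 0.0368). The log2 fold change was -4.93 without KO-labelled replicate 1, -6.49 without KO-labelled replicate 2 and -4.39 with a pseudocount of 10. The call was lost with a pseudocount of 0.1 (log2 fold change -5.98, adjusted p = 0.0608), with both rescalings to equal totals (-5.91 and -6.15) and without either WT library (adjusted p = 0.391 and 0.353), and the adjusted p over the other settings ran from 0.014 to 0.391.

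Lor, which encodes loricrin, the main protein of the mature envelope by mass, was found in a single HFSC library, KO-labelled replicate 2, at 21.9 CPM on 103 counts. In EpdSCs its values were 42.2 and 29.4 in WT and 231.8 and 4.04 in the KO-labelled libraries, 1 above and 1 below the WT pair. Sprr1a, a small proline-rich precursor, was likewise uneven in HFSCs, with 39.5 CPM in KO-labelled replicate 1 and 0 in replicate 2. In EpdSCs Sprr1a had 159.2 and 58.8 in WT and 8.91 and 11.5 in the KO-labelled libraries, lower in both (log2 fold change -3.14, limma adjusted p = 0.0745). Its neighbour Sprr1b went the other way there, at 16.2 and 0 in WT and 112.1 and 26.3 in the KO-labelled libraries (log2 fold change 3.74, limma adjusted p = 0.205). That log2 fold change was 1.69 without WT replicate 2 and 5.80 without WT replicate 1, and 5.41 and 2.04 with pseudocounts of 0.1 and 10. Sprr2a1 had 2.24 and 19.0 in WT EpdSCs and 102.0 and 63.8 in the KO-labelled libraries, higher in both (log2 fold change 3.34, limma adjusted p = 0.126). Without WT replicate 1 Sprr2a1 was at a log2 fold change of 2.03, without WT replicate 2 at 4.66, and with a pseudocount of 10 at 2.27. Its value is uncertain, because 96.3% of the 50-base words in its transcripts also occur in transcripts of other genes, and 92.5% in those of Sprr2a2, which overlaps it on the same strand. Kprp was lower in both KO-labelled EpdSC libraries and Cnfn, which encodes cornifelin, overlapped between the groups.

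Transglutaminases form the crosslinks of the envelope. In HFSCs the table listed Tgm5, and it stood next to Ppl in mean CPM, at 191.6 and 223 CPM in WT and 221.4 and 245 CPM in the KO-labelled libraries. The groups overlapped, with a log2 fold change of 0.17 (SE 0.23, edgeR adjusted p = 0.845), or -0.66 when scaled by library totals, a move of about the size seen over all genes. In EpdSCs Tgm1, Tgm3 and Tgm5 were each lower in both KO-labelled libraries, with log2 fold changes of -2.91, -3.18 and -2.37 and limma adjusted p-values of 0.0642, 0.185 and 0.215. Tgm5 there had 65.0 and 68.3 in WT and 3.82 and 34.4 in the KO-labelled libraries. Antisense genes overlap Tgm1 over 12274 bases, Tgm5 over 768 and Tgm3 over 117, and their reads cannot be told apart if counting did not use strand.

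The plakins periplakin and envoplakin, encoded by Ppl and Evpl, tie keratin filaments to the envelope and to desmosomes. Ppl, on chromosome 16 from 5086291 to 5132421, had the highest mean of the members in HFSCs, at 708 and 648 CPM in WT and 739 and 633 CPM in the KO-labelled libraries. The 4 HFSC libraries were close together and the groups overlapped, with a log2 fold change of 0.02 (SE 0.26, edgeR adjusted p = 0.988), or -0.84 when scaled by library totals, a move shared by all genes. In EpdSCs Ppl had normalised values 26692 and 27059 in WT and 344 and 1112 in the KO-labelled libraries. The WT libraries differed little, both KO-labelled libraries were far lower, and Ppl fell with a log2 fold change of -5.44 (SE 0.76, limma adjusted p = 0.0374). Without KO-labelled replicate 1 it was -4.59 and without KO-labelled replicate 2 it was -6.28. The call was lost with a pseudocount of 0.1 (-5.44), with both rescalings to equal totals (-5.71 and -5.97) and without either WT library (adjusted p = 0.393 and 0.392), and the adjusted p over the other settings ran from 0.00879 to 0.393.

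Evpl, on chromosome 11 from 116220559 to 116238077, had 209 and 220.8 CPM in WT HFSCs and 194.9 and 192.9 CPM in KO-labelled HFSCs. The KO-labelled libraries lay just below the WT pair, with a log2 fold change of -0.15 (SE 0.21, edgeR adjusted p = 0.856). In EpdSCs Evpl had normalised values 16605 and 16930.2 in WT and 16.6 and 243 in the KO-labelled libraries. Its log2 fold change of -8.00 (SE 1.45) was the lowest of the 33 members and missed the threshold (limma adjusted p = 0.0556), with an adjusted p over the other settings from 0.00879 to 0.436. It was called with a pseudocount of 10, with a trend, with the replicate block (adjusted p = 0.0394) and with the GC correction. Its log2 fold change was -6.10 without KO-labelled replicate 1 and -9.90 without replicate 2. Cdsn, which encodes the adhesive protein corneodesmosin, was higher in both KO-labelled HFSC libraries (log2 fold change 2.61, edgeR adjusted p = 0.455) and lower in both KO-labelled EpdSC libraries (log2 fold change -3.73, limma adjusted p = 0.158).

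Among 8 proteases and protease inhibitors, Cst6 encodes cystatin M/E, an inhibitor of cysteine proteases of the stratum corneum. It had 4.54 and 0.970 CPM in WT HFSCs and 163.6 and 31.6 CPM in KO-labelled HFSCs. The KO-labelled pair was higher, replicate 1 by far the most, with a log2 fold change of 5.04 (SE 1.22, edgeR adjusted p = 0.143) and an adjusted p over the other settings from 3.5e-06 to 0.212. Cst6 was called with DESeq2 and with the replicate block (adjusted p = 1.1e-04). Its log2 fold change was 3.30 without KO-labelled replicate 1 and 6.59 without WT replicate 1. The WT level then left, 0.970 CPM, equals the most that a count of 0 allows there. In EpdSCs Cst6 had 581 and 283 in WT and 44.6 and 89.6 in the KO-labelled libraries, lower in both (log2 fold change -2.66, SE 0.69, limma adjusted p = 0.0928). That log2 fold change ran from -3.18 to -2.14 with libraries left out. Cst6 was not called there with a trend, with a pseudocount of 10 or with the GC correction. Klk7, a kallikrein that cuts corneodesmosomes, had 6 and 0 counts in WT HFSCs and 192 and 69 counts in KO-labelled HFSCs, which is 0.801 and 0 CPM against 20.9 and 14.6 CPM. Both KO-labelled libraries were higher, with a log2 fold change of 5.24 (SE 1.66, edgeR adjusted p = 0.213). It was 4.35 without WT replicate 2. Without WT replicate 1 the WT level is 0 counts, which allows up to 0.970 CPM for counting error only, so the log2 fold change is given only as a bound of 4.20 or more. Klk7 was called with DESeq2, and its log2 fold change was 4.71 without KO-labelled replicate 1 and 5.23 without replicate 2. The adjusted p over the other settings ran up to 1. In EpdSCs Klk7 had 118.1 and 72.1 in WT and 45.8 and 28.3 in the KO-labelled libraries (log2 fold change -1.33, limma adjusted p = 0.189). Spink5 encodes LEKTI, the inhibitor that restrains these kallikreins. Its level was 38.3 and 60.8 CPM in WT HFSCs and 16.3 and 34.8 CPM in KO-labelled HFSCs, with both lower (log2 fold change -0.96, SE 0.54, edgeR adjusted p = 0.506). The log2 fold change of Spink5 was -0.52 without KO-labelled replicate 1 and -1.60 without replicate 2, and over the other settings the adjusted p ran up to 1. In EpdSCs Spink5 was lower in both KO-labelled libraries as well (log2 fold change -2.72, limma adjusted p = 0.175).

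Serpinb2 encodes a serine protease inhibitor, plasminogen activator inhibitor type 2. In EpdSCs it had 2996 and 2833 in WT and 15964 and 12729 in the KO-labelled libraries. Both were higher and the replicates lay close together in each group, but the log2 fold change of 2.29 (SE 0.47) missed the threshold (limma adjusted p = 0.0666). Serpinb2 was called with a trend in the prior spread and with a pseudocount of 10, and not with the GC correction (limma adjusted p = 0.0774). Its log2 fold change ran from 2.13 to 2.45 with libraries left out. In HFSCs Serpinb2 had 4.84 and 5.50 CPM in WT and 0 and 8.91 CPM in the KO-labelled libraries. Serpinb10 overlaps it on the same strand over 6476 bases and shares 10.4% of the 50-base words in its transcripts, so part of its reads cannot be told apart. Asprv1, Casp14 and Csta1 overlapped between the groups in EpdSCs, where Klk5 was lower in both KO-labelled libraries (log2 fold change -3.95, limma adjusted p = 0.108). In HFSCs Asprv1 and Casp14 had 0 counts in KO-labelled replicate 1 and 6.79 and 10.6 CPM in replicate 2.

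Lgals7, which encodes galectin-7, a lectin of stratified epithelia, is 1 of 6 members with secreted or cytoplasmic products of the differentiating layers. It lies on chromosome 7 from 28863853 to 28866284. In HFSCs it had 75.6 and 105.4 CPM in WT and 277 and 229 CPM in the KO-labelled libraries. The KO-labelled pair was more than 2-fold above both WT libraries, with a log2 fold change of 1.48 (SE 0.29, edgeR adjusted p = 0.143) and an adjusted p over the other settings from 0.00751 to 1. Lgals7 was called with DESeq2 and with limma-trend, and its log2 fold change was 1.31 without KO-labelled replicate 1 and 1.61 without replicate 2. In EpdSCs Lgals7 had 14389.5 and 10523 in WT and 1379 and 1545 in the KO-labelled libraries. The groups were far apart and Lgals7 fell, with a log2 fold change of -3.07 (SE 0.49, limma adjusted p = 0.0457). That call was lost with a pseudocount of 0.1 (log2 fold change -3.08), with both rescalings to equal totals (-3.34 and -3.61), with the replicate block (adjusted p = 0.0809), without either WT library (adjusted p = 0.348 and 0.309) and when values were corrected for GC content (log2 fold change -1.48, adjusted p = 0.198), and the adjusted p over the other settings ran from 0.0169 to 0.348. An antisense gene covers the whole locus, and reads of the 2 genes cannot be told apart if counting did not use strand, which is not stated.

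Sbsn, Dmkn and Krtdap encode the secreted proteins suprabasin, dermokine and keratinocyte differentiation-associated protein and lie side by side on chromosome 7 within 39.6 kb, from 30751471 to 30791097. In HFSCs Krtdap had 0.934 and 1.29 CPM in WT and 8.39 and 41.6 CPM in the KO-labelled libraries, higher in both (log2 fold change 4.48, SE 1.20, edgeR adjusted p = 0.153). Krtdap was called with DESeq2, and its log2 fold change was 5.25 without KO-labelled replicate 1 and 2.95 without replicate 2. The adjusted p over the other settings ran up to 1. Its WT levels were low, as a count of 0 allows up to 0.400 CPM in WT replicate 1 and 0.970 CPM in replicate 2. Dmkn had 94.0 and 89.5 CPM in WT HFSCs and 71.9 and 165.3 CPM in KO-labelled HFSCs, 1 library on each side of the WT pair. Sbsn had 111.7 and 169.7 CPM in WT HFSCs and 61.9 and 155.6 CPM in KO-labelled HFSCs. Of the 3 neighbours, only Krtdap had non-overlapping groups in HFSCs. In EpdSCs Sbsn had 8563 and 6441 in WT and 747 and 648 in the KO-labelled libraries. The groups were far apart and Sbsn fell, with a log2 fold change of -3.41 (SE 0.49, limma adjusted p = 0.0388), a call also made under both rescalings to equal totals. It was lost with a pseudocount of 0.1, with the replicate block (adjusted p = 0.0673), with the GC correction (log2 fold change -2.70, adjusted p = 0.0792) and without either WT library (adjusted p = 0.332 and 0.294). The adjusted p of Sbsn over the other settings ran from 0.0149 to 0.332. A noncoding gene on the same strand overlaps Sbsn over 4656 bases, and 6.96% of the 50-base words in Sbsn transcripts also occur in its transcripts, so part of the reads cannot be told apart. With libraries left out the log2 fold change of Sbsn in HFSCs ran from -1.19 to 0.12, and the adjusted p over the other settings ran up to 1. Krtdap had 4859 and 2779 in WT EpdSCs and 6293 and 1812 in KO-labelled EpdSCs, and Dmkn had 7075 and 5065 in WT and 5842 and 1701 in the KO-labelled libraries. Both overlapped between the groups, so that of the neighbours only Sbsn had separate groups in EpdSCs.

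Sfn encodes stratifin, a 14-3-3 protein of keratinocytes. In HFSCs it had 87.0 and 111.6 CPM in WT and 137.4 and 249.2 CPM in the KO-labelled libraries, higher in both (log2 fold change 0.96, SE 0.38, edgeR adjusted p = 0.322). The log2 fold change was 1.30 without KO-labelled replicate 1 and 0.46 without replicate 2, and the adjusted p over the other settings ran up to 1. In EpdSCs Sfn had 18143 and 14052.5 in WT and 73.9 and 2717 in the KO-labelled libraries, lower in both and very uneven between them (log2 fold change -5.15, SE 1.94, limma adjusted p = 0.157). It was -2.55 without KO-labelled replicate 1 and -7.74 without replicate 2. Sfn was not called there with a trend, with a pseudocount of 10 or with the GC correction. Of the 50-base words in Sfn transcripts 15.0% also occur in transcripts of other genes, 11.8% in those of Gm7850. Calml3, a calmodulin-like protein of epithelia, had 245 and 210.1 CPM in WT HFSCs and 134.3 and 153.5 CPM in KO-labelled HFSCs, lower in both (log2 fold change -0.66, SE 0.23, edgeR adjusted p = 0.252). In EpdSCs it was lower in both KO-labelled libraries too (log2 fold change -2.41, limma adjusted p = 0.0604). Flg, Krtdap, Sfn and Cst6 were picked by the study from HFSC libraries that include these, so their direction in HFSCs is not independent evidence.

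Ly6d, a GPI-anchored surface protein of the Ly6 family, lies on chromosome 15 from 74762056 to 74763620. In HFSCs it had 2.40 and 0.970 CPM in WT and 52.4 and 89.8 CPM in the KO-labelled libraries. Both KO-labelled libraries were higher, with a log2 fold change of 5.30 (SE 0.67, edgeR adjusted p = 0.143) and an adjusted p over the other settings from 4.3e-08 to 0.212. Ly6d was called with DESeq2, with limma-trend and with the replicate block (adjusted p = 9.3e-04). Its log2 fold change ran from 4.77 to 6.15 with HFSC libraries left out. In WT replicate 2 its 0.970 CPM equals the most that a count of 0 allows there. In EpdSCs Ly6d had 4483 and 3154 in WT and 412209 and 60944 in the KO-labelled libraries. In KO-labelled EpdSC replicate 1 Ly6d made up 1.67% of all values in the library and in replicate 2 0.429%, against 0.0272% and 0.0215% in WT. Both KO-labelled libraries were higher, with a log2 fold change of 5.40 (SE 1.11, limma adjusted p = 0.0664) and an adjusted p over the other settings from 0.00921 to 0.448. Ly6d was called there with a pseudocount of 10 and with the replicate block (adjusted p = 0.0426). Its log2 fold change there was 4.02 without KO-labelled replicate 1 and 6.78 without replicate 2. Ly6d was the member tested in both cell types whose groups were apart with KO-labelled above WT in both. Skint5, of a butyrophilin-like family of the skin, had 311 and 249.4 in WT EpdSCs and 0 and 23.6 in KO-labelled EpdSCs (log2 fold change -5.82, limma adjusted p = 0.112). It was called with a pseudocount of 10 (log2 fold change -3.98), and not with a trend or with the GC correction. The log2 fold change was -3.51 without KO-labelled replicate 1. Without replicate 2 the KO-labelled value left is 0 and the fold depends on the pseudocount. Ptgs1, which encodes cyclooxygenase-1, had 1761 and 860.4 in WT EpdSCs and 1510.3 and 1569.7 in KO-labelled EpdSCs, with overlapping groups. A gene antisense to Ptgs1 overlaps it over 2022 bases, and the reads of the 2 cannot be told apart if counting did not use strand.

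Of the 22 members tested in both cell types, 7 had both KO-labelled libraries above WT in HFSCs and both below WT in EpdSCs (Cdsn, Cst6, Flg, Ivl, Klk7, Lgals7 and Sfn), against 7.98% of the 13151 genes tested in both, and 0 had the reverse, against 8.57%. Ly6d was above in both, against 5.67% of those genes, and Calml3, Evpl and Spink5 were below in both, against 15.3%. In HFSCs a member could pass the filter through a single group, so the 7 describe the members that passed. Of the 9 members with at least 10 counts in every HFSC library, 2 were above in HFSCs (Lgals7 and Sfn), against 24.3% of such genes. The 2 tables were normalised separately, so the difference between cell types was not tested.

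**Figure D2:**
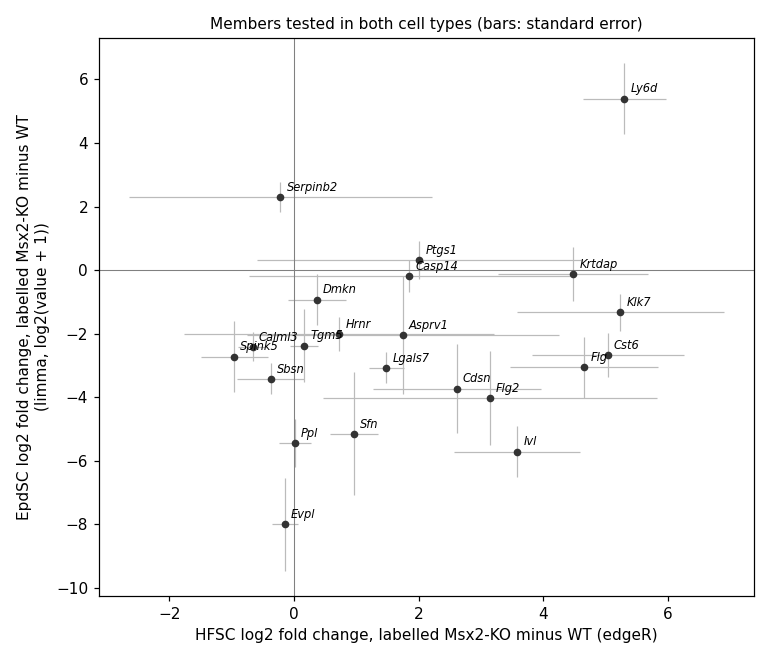
Log2 fold change, KO-labelled minus WT, of the 22 members tested in both cell types, in HFSCs on the horizontal axis (edgeR) and in EpdSCs on the vertical axis (limma, log2(value + 1)), with bars for the standard error. Ly6d is in the upper right, at 5.30 and 5.40, and Flg, Cst6, Ivl and Klk7 are in the lower right.

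Levels of different genes were compared per kb of exon length. Among WT HFSCs the order by mean CPM per kb was Calml3 (160.1), Ppl (98.4), Lgals7 (97.6), Tgm5 (65.7) and Sfn (61.6), and among KO-labelled HFSCs it was Lgals7 (273), Sfn (119.8), Calml3 (101.3), Ppl (99.6) and Ly6d (95.5). In WT EpdSCs Lgals7 (13437), Sfn (9980.1), Krtdap (5624), Ly6d (5132) and Ppl (3899) were highest by normalised value per kb. In KO-labelled EpdSCs Ly6d (317979) was far ahead of Serpinb2 (6107), Krtdap (5968), Dmkn (1721) and Lgals7 (1577).

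On a scale like CPM but taken over the total of nuclear protein-coding genes alone, the listed members together took 4098 and 3893 in WT HFSCs and 5464 and 6442 in KO-labelled HFSCs. In EpdSCs they took 11214 and 9466 in WT and 20294 and 7128 in the KO-labelled libraries. Without Ly6d the sums in EpdSCs were 10762 and 9148 in WT and 1550.3 and 2105 in the KO-labelled libraries, so that the KO-labelled libraries were below WT once that gene was set aside. In HFSCs without Ly6d they were 4092 and 3891 in WT and 5332 and 6209.6 in the KO-labelled libraries. WT HFSC mice were 2 months old and WT EpdSC mice 6 months, so between these groups age and cell type cannot be told apart. On the same scale, and across tables normalised separately, Krtdap was at 2.14 and 2.69 in WT HFSCs and 489.5 and 280.2 in WT EpdSCs. Ivl was at 2.75 and 2.69 in WT HFSCs and 43.6 and 23.4 in WT EpdSCs, whereas Tgm5 was at 438 and 464 in WT HFSCs and 6.55 and 6.89 in WT EpdSCs, and Calml3 at 559.7 and 437 against 17.0 and 15.1.

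In position, 16 of the 40 members lay together on chromosome 3 from 92080271 to 93399442, the epidermal differentiation complex. This stretch of 1319 kb holds the filaggrin-type genes, Lor, Ivl, Kprp and the small proline-rich and late envelope members. In HFSCs 9 of the 16 were listed and 4 tested, of which 2 (Ivl and Flg) had both KO-labelled libraries above WT, beside 17.5% of all genes, and 0 both below, beside 33.5%. In EpdSCs 9 were listed and tested, with 6 below, beside 44.5%, and 2 above (Sprr1b and Sprr2a1), beside 27.8%. Of the 37 other genes listed for this complex, 8 stood in the HFSC table, and edgeR called 0 of the 2 tested (0 at an unadjusted p under 0.05, 0 with DESeq2 and 0 with limma-trend), with a median log2 fold change of 0.92. In EpdSCs 3 of 6 had both KO-labelled libraries above WT and 1 both below, with a median log2 fold change of 1.93, beside -2.66 for the members. There limma called 0 higher (1 unadjusted, 0 with a trend) and 1 lower (1 unadjusted, 1 with a trend), Tchh, the trichohyalin gene of the inner root sheath, which had 1100.5 and 617 in WT and 22.9 and 44.5 in the KO-labelled libraries (log2 fold change -4.64, limma adjusted p = 0.0366). Its call was lost with a pseudocount of 0.1 (log2 fold change -4.68), with both rescalings (-4.90 and -5.17), with the GC correction (-3.43, adjusted p = 0.0539) and without either WT library (-4.23 and -5.06, adjusted p = 0.357 and 0.322), and the adjusted p over the other settings ran from 0.0171 to 0.357. Sprr2a2, the copy that shares reads with Sprr2a1, had 107.2 and 91.2 in WT EpdSCs and 21782 and 1507 in KO-labelled EpdSCs (log2 fold change 5.84, limma adjusted p = 0.0885).

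The promoter sequences of the members were read from RefSeq (GRCm38.p6) as windows of 300 bases, 250 before the start of transcription and 50 after. A window was found for 33 of the 40, and the members without one were Kprp, Calml3, Cst6, Spink5, Ppl, Evpl and Ly6d. The letters TGANTCA, which on either strand are the core that AP-1 factors bind, stood in 12 of the 33 windows (36.4%) and in 7.92% of the 27025 genes with a window. TATAAA, on either strand, stood in 12 of 33 (36.4%) and in 14.2% of all. The AP-1 letters were in the windows of Flg, Flg2, Rptn, Lor, Ivl, Krtdap, Sbsn, Dmkn, Sprr1a, Sprr1b, Sprr2d and Serpinb2, which include genes higher and genes lower in the KO-labelled EpdSC libraries. Among the 15 members with a window whose KO-labelled EpdSC libraries were both below WT, 5 had these letters. A match is a description of the letters and not a bound site.

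The windows of the called members Ivl, Sbsn and Lgals7, and of Flg and Krtdap, which had the 2 highest HFSC log2 fold changes among members with AP-1 letters, are shown on the strand of the gene with matches to TGANTCA or TATAAA in capitals. They are shown because these members were called in EpdSCs or had separate groups in HFSCs, and were chosen after their values were seen. Counted from the start of transcription, the first base of TGANTCA was at -116 in Ivl, -103 in Flg, -81 in Krtdap, and -119 and -6 in Sbsn. The first base of TATAAA was at -29 in Ivl, -53 in Flg and -30 in Krtdap. No match overlapped another, and Lgals7 had neither. The windows lay at chr3:92573686-92573985 (minus strand) for Ivl, chr7:30751221-30751520 (plus strand) for Sbsn, chr7:28864136-28864435 (plus strand) for Lgals7, chr3:93273296-93273595 (plus strand) for Flg and chr7:30787655-30787954 (plus strand) for Krtdap.
Ivl: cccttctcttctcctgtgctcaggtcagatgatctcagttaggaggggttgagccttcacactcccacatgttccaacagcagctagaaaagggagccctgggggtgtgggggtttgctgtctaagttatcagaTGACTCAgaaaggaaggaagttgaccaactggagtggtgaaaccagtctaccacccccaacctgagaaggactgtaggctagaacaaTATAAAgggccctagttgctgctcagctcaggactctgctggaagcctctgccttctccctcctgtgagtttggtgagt
Sbsn: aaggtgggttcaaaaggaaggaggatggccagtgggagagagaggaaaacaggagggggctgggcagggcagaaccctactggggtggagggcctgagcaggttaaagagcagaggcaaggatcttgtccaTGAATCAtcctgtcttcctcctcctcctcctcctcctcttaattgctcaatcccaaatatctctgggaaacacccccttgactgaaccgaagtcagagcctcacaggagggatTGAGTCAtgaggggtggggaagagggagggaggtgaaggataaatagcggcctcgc
Lgals7: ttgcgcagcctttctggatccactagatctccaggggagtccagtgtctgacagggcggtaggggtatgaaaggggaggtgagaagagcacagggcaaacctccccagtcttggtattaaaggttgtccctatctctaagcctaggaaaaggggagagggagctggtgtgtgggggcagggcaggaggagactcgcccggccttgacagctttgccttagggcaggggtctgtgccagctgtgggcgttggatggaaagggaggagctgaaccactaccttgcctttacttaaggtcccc
Flg: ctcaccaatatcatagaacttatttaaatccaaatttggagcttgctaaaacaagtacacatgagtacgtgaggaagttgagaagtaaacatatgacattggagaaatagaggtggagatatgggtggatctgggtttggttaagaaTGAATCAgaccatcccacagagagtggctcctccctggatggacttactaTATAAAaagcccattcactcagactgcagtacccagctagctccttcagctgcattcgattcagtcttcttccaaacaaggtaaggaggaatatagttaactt
Krtdap: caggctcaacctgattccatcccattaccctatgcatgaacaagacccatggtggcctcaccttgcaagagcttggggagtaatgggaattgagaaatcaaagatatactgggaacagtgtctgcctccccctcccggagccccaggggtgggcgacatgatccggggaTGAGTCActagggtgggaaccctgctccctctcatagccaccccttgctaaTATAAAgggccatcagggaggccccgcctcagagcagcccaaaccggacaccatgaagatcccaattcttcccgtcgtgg

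Other genes of cornification, proteases, peptidylarginine deiminases and serpins among them, were 35 in number. In HFSCs edgeR called 0 of the 19 tested, with 4 higher and 2 lower at an unadjusted p under 0.05, 3 and 1 with DESeq2, 0 and 1 with limma-trend, and a median log2 fold change of 0.82. In EpdSCs limma called 1 of 24 lower, Ly6g6c, and 0 higher, with a median of -0.16. With the p left unadjusted 6 were lower and 4 higher, beside 23.1% and 12.2% of all genes tested. With a trend 2 were lower (Ly6g6c and Scel) and 2 higher, beside 8.92% and 4.21%. For this and the other lists, the shares over all genes in each fit are those given with the members. Ly6g6c, a further gene of the Ly6 family, had 2835 and 1751 in WT EpdSCs and 140.1 and 167 in the KO-labelled libraries (log2 fold change -3.86, limma adjusted p = 0.0361). That call was lost with the replicate block, with the GC correction (log2 fold change -2.88, adjusted p = 0.0716) and without either WT library (-3.51 and -4.20, adjusted p = 0.318 and 0.274), and over the other settings the adjusted p ran from 0.0193 to 0.318. Scel, which encodes the envelope precursor sciellin, had 143 and 111.2 CPM in WT HFSCs and 168 and 122 CPM in KO-labelled HFSCs, with overlapping groups.

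Of the 6 suprabasal keratins, edgeR called 0 of 5 tested in HFSCs (3 higher unadjusted, 3 with DESeq2 and 2 with limma-trend, and 0 lower in each), with a median log2 fold change of 4.72. In EpdSCs limma called Krt78 lower among 6 (2 lower unadjusted, 1 with a trend, and 0 higher in each), with a median of -1.62 over the list. Krt78 had 3591 and 2429 in WT and 49.7 and 76.8 in the KO-labelled libraries (log2 fold change -5.56, limma adjusted p = 0.0266). Its call was lost without either WT library (log2 fold change -5.27 and -5.84, adjusted p = 0.292 and 0.268), and the adjusted p over the other settings ran from 0.0106 to 0.292. The summed level of these keratins was 256 and 205 CPM in WT HFSCs and 841 and 3598 CPM in KO-labelled HFSCs, with Krt10 the most abundant. In EpdSCs the sum was 362595 and 243774 in WT and 154190.3 and 92272 in the KO-labelled libraries. Among 15 transcription factors of differentiation edgeR called 0 in HFSCs (3 higher and 1 lower unadjusted and with DESeq2, and 1 higher with limma-trend), with a median of 1.59. In EpdSCs limma called 0 of 14 (3 higher and 1 lower unadjusted, 0 with a trend), with a median of 0.39.

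Markers of neighbouring compartments were also counted in HFSCs, where edgeR called 0 of the sebaceous, infundibulum, HFSC and basal markers. The 8 sebaceous gland markers tested, of 9 on the list, had both KO-labelled libraries above WT (17.5% of all genes did, and 33.5% had both below), and edgeR called 0 of them (8 higher unadjusted, 6 with DESeq2 and 4 with limma-trend, and 0 lower in each). Their summed level was 39.1 and 35.2 CPM in WT HFSCs and 1319.6 and 1000.8 CPM in KO-labelled HFSCs, with Scd1 the most abundant. Of the 9 markers of the infundibulum, the funnel of the upper follicle, 5 were above WT in both KO-labelled libraries and 3 below, and edgeR called 0 (3 higher and 2 lower unadjusted and with DESeq2, and 2 higher with limma-trend). Their sum was 363 and 729.9 CPM in WT and 1472 and 1406 CPM in the KO-labelled libraries, with Krt17 the most abundant and Krt6b at 0 counts in both KO-labelled libraries. Of the 7 HFSC markers 6 were below WT in both KO-labelled libraries, their sums being 6287 and 5988 CPM in WT and 3305 and 3548 CPM in the others, Krt15 the most abundant. Cd34, used in the sort, was lower at an unadjusted p, with DESeq2 and with limma-trend, and 0 HFSC markers were higher in each. Of 5 basal markers 4 were below, their sums being 7494 and 7486 CPM in WT and 4484 and 4377 CPM in the KO-labelled libraries, Col17a1 the most abundant. Itgb4 was lower at an unadjusted p, with DESeq2 and with limma-trend, Col17a1 was lower unadjusted, and 0 basal markers were higher in each. The part of these compartments in the members' values was not tested.

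Markers of other cell kinds were summed in HFSCs as well. The markers of Langerhans and T cells summed to 8.81 and 4.85 CPM in WT and 20.2 and 10.4 CPM in the KO-labelled libraries (Cd74 the most abundant, Ptprc at 0 in both KO-labelled libraries). Those of fibroblasts summed to 47.8 and 64.0 CPM in WT and 27.0 and 12.3 CPM in the others (Col1a2 the most abundant), and those of melanocytes to 15.0 and 31.3 CPM against 48.8 and 17.8 CPM (Dct the most abundant, Pmel and Tyrp1 at 0 in both KO-labelled libraries). Those of blood vessels summed to 10.4 and 5.22 CPM in WT and 6.10 and 4.03 CPM in the KO-labelled libraries (Pecam1), those of the inner root sheath and shaft to 5.61 and 14.2 CPM against 13.5 and 34.0 CPM (Krt75), and those of the interfollicular epidermis to 465 and 685 CPM against 428 and 567 CPM (Thbs1). Of the 4 interfollicular markers tested, 1 was above WT in both KO-labelled libraries and 1 below, with a median log2 fold change of 0.36. Ly6e was higher at an unadjusted p and with DESeq2, and 0 were lower in each. The part of these cells in the members' values was not tested.

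In EpdSCs the markers of Langerhans and T cells summed to 673 and 56.0 in WT and 2.55 and 3.37 in the KO-labelled libraries, with Cd74 the most abundant. Cd207, Cd3e, Trdc and Ptprc were listed at 0 in both KO-labelled libraries, and limma called 0 of 6 lower (3 unadjusted, 0 with a trend) and 0 higher in each. Of 11 inner root sheath and hair shaft markers 3 were tested and 2 called lower, Krt71 (log2 fold change -4.98) and Krt27 (-4.14), both at a limma adjusted p of 0.0281. Neither was called with a pseudocount of 10 (log2 fold change -2.03 and -1.41), with the GC correction (-3.77 and -2.93, adjusted p = 0.0588 and 0.0736) or without either WT library, Krt27 was not called with the replicate block, and over the other settings the adjusted p ran from 0.00996 to 0.288 for Krt71 and from 0.00879 to 0.288 for Krt27. Krt71 and Krt27 were listed at 0 in both KO-labelled libraries, so their log2 fold changes depend on the pseudocount. With a pseudocount of 0.1 they were -8.26 and -7.39, and both were called. The list summed to 86.7 and 39.8 in WT and 0 in both KO-labelled libraries.

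In EpdSCs limma called 0 of the basal, HFSC, sebaceous and infundibulum markers. The basal markers summed to 232558 and 278897 in WT and 626966 and 515856 in the KO-labelled libraries, Krt14 the most abundant. Of the 5, Krt5, Krt14 and Itga6 were above WT in both KO-labelled libraries, Col17a1 overlapped, and Itgb4 was below, at 7432 and 11067 in WT and 183 and 1148 in the others (log2 fold change -4.30, limma adjusted p = 0.0882). The HFSC markers summed to 81270.4 and 97973 in WT and 231761 and 179978 in the others, nearly all of it Krt15. Of the 6 listed, Krt15, Lgr5 and Tcf7l1 were above, while Lhx2 (log2 fold change -1.06), Sox9 (-0.23) and Nfatc1 (0.48) overlapped. The sebaceous markers summed to 3872 and 4648 in WT against 23827 and 10252, most of it Scd1. Of the 4 listed, Scd1 and Mgst1 were above, Plin2 was below (-2.72) and Soat1 overlapped (-2.28), with a median of -0.17. The infundibulum markers summed to 8109 and 8300.3 in WT and 9376 and 3320.4 in the KO-labelled libraries (Krt79 the most abundant), with 2 of 9 above and 3 below. Of the 5 interfollicular markers limma called 1 lower, Cxcl14, with 3041 and 3772 in WT and 199.9 and 326 in the KO-labelled libraries (log2 fold change -3.73, limma adjusted p = 0.0392). It was called with a trend, and not with a pseudocount of 0.1 (log2 fold change -3.73), with either rescaling (-3.99 and -4.26), with the replicate block, with the GC correction (-2.51, adjusted p = 0.0746) or without either WT library (-3.88 and -3.57, adjusted p = 0.349 and 0.35), and the adjusted p over the other settings ran from 0.0104 to 0.35. Of the blood vessel markers Pecam1 was listed, at 8.67 and 4.74 in WT and 24.2 and 18.2 in the others, and the fibroblast and melanocyte markers were not listed. The part of these cells in the members' values was not tested.

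RNA composition differed between the groups as well. In WT HFSCs 8.94% and 36.3% of counts were mitochondrial ribosomal RNA, and in KO-labelled HFSCs 49.4% and 53.2%. Of the genes tested, 0.118% and 0.964% were at 0 in WT HFSCs and 25.2% and 14.1% in KO-labelled HFSCs, and of the 29 listed members 1 and 5 were at 0 in WT and 11 and 2 in the KO-labelled libraries. In EpdSCs 1.73% and 1.29% of genes were at 0 in WT and 20.2% and 5.82% in the KO-labelled libraries, and that RNA made up 23.5% and 16.4% of the WT values and 0.0730% and 6.18% in the others. The part of these differences in the members' values was not tested.

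In EpdSCs the log2 fold change moved with base composition. Over 12174 protein-coding genes its median was 0.25 among the 2435 genes with the least GC in the longest transcript (up to 43.8%) and -1.48 among the 2435 with the most (55.5% or more), and Spearman's rho across genes, which are not independent, was -0.236. The members had a median GC of 52.3%, beside 49.8% over those genes. When the values of each library were corrected for GC content, a setting chosen after seeing the data, the members' median was -1.64, beside -0.03 over all genes. Limma then called 0 members higher, against 1.57% of the 15824 genes with a GC value, and 3 lower, against 4.98%. The 3 were Evpl (log2 fold change -6.11, adjusted p = 0.0490), Ivl (-4.97, adjusted p = 0.0414) and Ppl (-4.46, adjusted p = 0.0414). Without correction their log2 fold changes were -8.00, -5.71 and -5.44. In HFSCs the same rho was 0.101 for GC and -0.130 for exon length, and the members' median length was 2536 bases, beside 4756 bases over the protein-coding genes tested. The part of GC and length in the HFSC values was not tested.

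**Figure D3:**
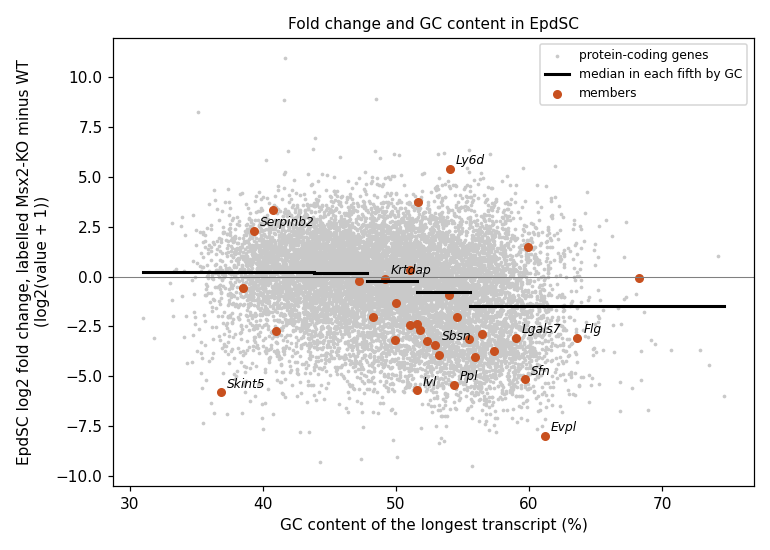
EpdSC log2 fold change, KO-labelled minus WT, on the log2(value + 1) scale against the GC content of the longest transcript, with grey points for protein-coding genes, orange points for members and black lines for the median in each of 5 classes of genes by GC. The median is 0.25 in the class with the least GC and -1.48 in that with the most, and Evpl, Ppl and Ivl lie below the median of their class.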

How the data were processed

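Gene-level tables of sorted HFSCs and EpdSCs were used, with 2 WT and 2 KO-labelled libraries each. Reads had been aligned by the authors with STAR 2.7.3a in Partek Flow to GRCm38. As deposited by the authors, the HFSC table holds estimated counts per gene with no normalisation, made from STAR alignments in Partek Flow, and these were rounded. The EpdSC table holds a signal that the authors normalised by 1 factor per library, by a method not stated. The authors' own comparisons, which hold log2 ratios and p-values, were not used. HFSCs were tested with edgeR 4.0.16 (quasi-likelihood, TMM, filterByExpr) in R 4.3.3, and EpdSCs with limma 3.58.1 on log2(value + 1). DESeq2 1.42.0 was an alternative test in HFSCs. Calls needed a fold change over 2 and a p under 0.05 after Benjamini-Hochberg adjustment over all genes tested. The standard error for edgeR is the log2 fold change divided by the square root of F. The tables were not tested against each other. A floor of 3 counts was used for a count of 0, for counting error only.

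The members and lists were chosen with earlier results of these data known. In each cell type the rule names every member called, the 8 highest by mean, the 5 largest log2 fold changes each way with a group mean of at least 10, and Flg, Krtdap, Sfn and Cst6. Other members given with values were chosen after those were seen. Lists of other genes of the epidermal differentiation complex and of cornification, suprabasal keratins, differentiation factors and markers of basal, follicle, infundibulum, sebaceous, hair, immune, fibroblast, melanocyte and vessel cells were counted in the same fits. Alternatives were other normalisations, filters, pseudocounts and tests, a replicate block and leaving out each library. A correction for GC content in 20 bins in EpdSCs was chosen after seeing the data.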

Additional observations from a re-analysis of the deposited data

Results flagged for a closer look

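In 7 of the 22 members tested in both cell types both KO-labelled libraries lay above both WT libraries in HFSCs and below both in EpdSCs, against 7.98% of the 13151 genes tested in both. The log2 fold change, KO-labelled minus WT, was 4.66 in HFSCs and -3.06 in EpdSCs for Flg. For Ivl it was 3.58 and -5.71. For Cdsn it was 2.61 and -3.73. For Cst6 it was 5.04 and -2.66, and for Klk7 5.24 and -1.33. For Lgals7 it was 1.48 and -3.07, and for Sfn 0.96 and -5.15. In HFSCs edgeR called 0 of the 7. At an unadjusted p under 0.05 it had 5 (5.02% of all genes tested), DESeq2 called 4 (2.38%) and limma-trend 1 (1.10%). In EpdSCs limma called Ivl and Lgals7 lower (7.78% of genes). The 7 were picked by where their libraries lay, so these counts cannot be compared with the shares of all genes, which were not picked. Of 12 other settings the call of Ivl was lost in 5 and that of Lgals7 in 7. Flg, Ivl, Cdsn, Cst6 and Klk7 each had fewer than 10 counts in at least 1 WT HFSC library. Of the 9 members with at least 10 counts in every HFSC library, Lgals7 and Sfn were above (24.3% of such genes were), 3 were below (27.2%), and the median log2 fold change was 0.10. The difference between the cell types was not tested. In HFSCs the 8 sebaceous markers tested also lay above WT in both KO-labelled libraries, and 6 of 7 HFSC markers lay below. Mitochondrial ribosomal RNA made up 8.94% and 36.3% of counts in WT HFSCs and 49.4% and 53.2% in KO-labelled HFSCs. The part of these differences in the members' values was not tested. WT HFSC mice were 2 months old and the other groups 6 months. The KO-labelled HFSC and WT EpdSC libraries have names with adjoining numbers, whereas WT HFSC and KO-labelled EpdSC libraries have names from other series. What the names stand for is not stated, and their part in the values was not tested.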

How the results depend on the processing

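In HFSCs edgeR called 0 members higher, against 6 with DESeq2 (2.38% of genes), 2 with limma-trend (1.10%) and 2 with a replicate block (1.01%), and from 2 (0.607% and 0.585%, without a WT library) to 16 (15.1%, without KO-labelled replicate 1) when each library was left out. The count lower was 0 and ran from 0 to 8 (41.8%, without KO-labelled replicate 2) with libraries left out. The members' median log2 fold change of 1.62 was 0.63 with library totals, 0.10 with at least 10 counts in every library (9 members), 0.43 with limma-trend and 0.14 with the block, and ran from 0.0878 to 2.68 with libraries left out. In EpdSCs the count higher of 0 was 2 with a pseudocount of 10 (3.81% of genes), 1 with a trend (4.21%) and 1 with the block (1.10%), and ran from 0 (0%) to 3 (23.1%) with libraries left out. The count lower of 4 was 0 with a pseudocount of 0.1 (5.85% of genes), 7 with 10 (8.34%), and 1 with either rescaling to equal totals (6.75% and 7.56%), and ran from 0 (0%) to 18 (40.9%) with libraries left out. The median of -2.66 was -1.53 with a pseudocount of 10, -2.92 and -3.19 with the rescalings and -1.64 with the GC correction, and ran from -2.89 to -2.16 with libraries left out.

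Library totals moved the median of all HFSC genes by -0.86 and with it Ppl to -0.84, Tgm5 to -0.66 and Dmkn to -0.55, moves of -0.86, -0.83 and -0.92, so that their sign there says nothing about these members. Ppl, near 0, was -0.0248 without mitochondrial and ribosomal RNA genes and -0.00404 with no filter. With libraries left out Ppl ran from -0.14 to 0.12, Dmkn from -0.36 to 0.82 and Sbsn from -1.19 to 0.12. In EpdSCs totals without those genes moved all genes by -0.50 and Ptgs1 by -0.54, to -0.21, and Dmkn was 0.0496 and Krtdap 0.26 with the GC correction, which moved all genes by 0.60. With libraries left out Ptgs1 ran from -0.19 to 0.84 and Krtdap from -1.02 to 0.78. The cause of the turns with libraries left out was not tested. Of the other values of named members, 125 in HFSCs and 143 in EpdSCs kept their direction and side of the threshold, 29 and 20 passed it newly, and 22 in EpdSCs lost it.

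Equal totals moved the median of all EpdSC genes by -0.24. Leaving out a library leaves a lone sample assumed to vary like the other group. Without KO-labelled replicate 2 the calls rose to 2711 higher and 6561 lower genes in HFSCs and to 3745 and 6631 in EpdSCs. Replicate numbers do not pair samples (r across genes of -0.0350 in HFSCs and -0.0225 in EpdSCs). With 2 libraries in each group, and 25.2% of the genes tested at 0 in KO-labelled HFSC replicate 1, members with few counts had wide errors.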
